A study of Mus musculus with 4 samples.

Results

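Expressed autosomal long non-coding RNAs were described here in activated mouse T cells. They are the autosomal genes that GENCODE mouse release 21 types as lincRNA, antisense or processed_transcript and whose level, averaged over the libraries, was at least 5 TPM. TPM, a transcript abundance, is the count divided by the exon length and scaled to the same total in each library. Gm42418 and Gm26917, which carry ribosomal RNA repeat sequence, were left out. The rule kept 188 genes of 6993 autosomal genes of the 3 types, 2274 of which had a count in any library, and of 50600 genes in all. Of the 188, 84 were typed lincRNA, 56 processed_transcript and 48 antisense. Because members were selected on their level, levels are given as a description and were not tested.

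The samples are 4 libraries of primary T cells from C57BL/6NJ mice, numbered as biological replicates 1 to 4 of a single group, so no contrast between conditions exists. The file headers name the cells as bulk, activated, at 72 h, under a sample name that begins with mmTh0. Sex, age and stage were not recorded in the labels, and all libraries carry the same donor identifier. A p-value here speaks of the spread among these 4 libraries. The assay is labelled total RNA, while the linked library protocol is titled for polyadenylated RNA.

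The libraries held 49613182 to 94222415 counted fragments. All 8 T-cell markers were high, at mean levels of 187 to 1768 TPM, with Cd4 at 1056 ± 62.8 TPM (SD, n = 4). Mean levels were at most 2.55 TPM for 5 B-cell markers, 3.21 TPM for 4 macrophage markers and 0.252 TPM for markers of neutrophils, erythroid cells and natural killer cells. Among the CD8 markers, Cd8a stood at 0.190 ± 0.0957 TPM and Cd8b1 at 15.8 ± 2.38 TPM. Xist stood at 332 and 150.1 TPM in replicates 1 and 2, against 0.877 and 0.392 TPM in replicates 3 and 4, and the Y-linked gene Ddx3y took the opposite order, at 0.0344, 0.0834, 49.0 and 45.8 TPM. Such a split goes against a single donor, so the spread among the libraries includes a difference between animals that the labels do not give. The part of this split in the values below was not tested. In bulk samples, fewer cells of a type and less RNA per cell cannot be told apart.

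Long non-coding RNAs are transcribed by RNA polymerase II, and most are capped and spliced like messenger RNA without a long conserved reading frame. Some act as RNA in the nucleus, as Malat1 in nuclear speckles and Neat1 in paraspeckles. Others are mainly hosts, spliced transcripts whose introns or exons yield small nucleolar RNAs (snoRNAs, guides for the modification of ribosomal RNA), small Cajal body RNAs (scaRNAs, guides for spliceosomal RNA) or microRNAs (miRNAs, which repress target messages through their seed). Others again start at the promoter of a coding gene or run across it on the other strand. In T cells the best known members are the hosts of miR-155, miR-142 and the miR-17 to miR-92 cluster, which shape activation, development and division.

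In all, 8 members held 14 annotated miRNA genes on their own strand. Their mature products, as RefSeq gives them on GRCm38.p6, are printed for the arms best known as active, because the seed (bases 2 to 8, in capitals) decides which messages a miRNA can pair with. Mir142hg held the miRNA of blood cells, from which both arms are shown.
mmu-miR-142a-5p (chr11:87756867-87756887, plus strand): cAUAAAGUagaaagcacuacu
mmu-miR-142a-3p (chr11:87756903-87756925, plus strand): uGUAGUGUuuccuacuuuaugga
Mir155hg held miR-155, which is induced on lymphocyte activation and represses Socs1, an inhibitor of cytokine signalling.
mmu-miR-155-5p (chr16:84714143-84714165, plus strand): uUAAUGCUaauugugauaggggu
Mir17hg held 6 miRNA genes, and the arms of them printed here fall into 4 seed groups. The seed of miR-17 is shared by miR-20a, and that of miR-19a by miR-19b, while miR-18a and miR-92a each have their own.
mmu-miR-17-5p (chr14:115043684-115043706, plus strand): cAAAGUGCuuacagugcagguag
mmu-miR-20a-5p (chr14:115044183-115044205, plus strand): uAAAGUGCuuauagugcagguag
mmu-miR-18a-5p (chr14:115043867-115043889, plus strand): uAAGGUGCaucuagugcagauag
mmu-miR-19a-3p (chr14:115044048-115044070, plus strand): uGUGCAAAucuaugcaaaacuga
mmu-miR-19b-3p (chr14:115044358-115044380, plus strand): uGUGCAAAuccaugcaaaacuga
mmu-miR-92a-3p (chr14:115044476-115044496, plus strand): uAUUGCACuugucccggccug
Mir22hg held miR-22, and 1700016P03Rik held miR-132 and miR-212, which share a seed.
mmu-miR-22-3p (chr11:75463772-75463793, plus strand): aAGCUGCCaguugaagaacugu
mmu-miR-132-3p (chr11:75173723-75173744, plus strand): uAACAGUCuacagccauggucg
mmu-miR-212-3p (chr11:75173443-75173464, plus strand): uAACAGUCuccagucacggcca

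The members took 0.710, 0.644, 0.638 and 0.646% of all TPM in replicates 1 to 4 (0.659 ± 0.0339%, SD, n = 4). The share was highest in replicate 1 and nearly level among the other libraries. All 6993 autosomal genes of the 3 types took 0.785 ± 0.0421%, a comparison that the choice of members by level largely sets. Within them 17 averaged at least 100 TPM, 43 lay between 20 and 100, 44 between 10 and 20, and 84 between 5 and 10, around a median of 11.7 TPM. The 10 highest held 41.5% of the summed level, and 15 members were enough for more than 50% of it. In every library 156 members reached 5 TPM. Processed transcripts and lincRNAs had median levels of 13.8 and 14.2 TPM and included all members at 100 TPM or more, while antisense members had a median of 8.82 TPM and a maximum of 62.2 TPM.

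The order at the top was only partly stable. The most abundant member, 2410006H16Rik (chr11:62602877-62604807, plus strand, mm10), which holds Snord49a, Snord49b and Snord65, stood at 472, 544, 364 and 546 TPM in replicates 1 to 4. Cct6a, which RefSeq types as the coding gene of a subunit of the cytosolic chaperonin, stood at 477, 474, 482 and 467 TPM and was the steadier of the 2. AI506816 at 335 ± 32.6, Snhg6 at 306 ± 35.7, Ifi30 at 229 ± 24.7 and Mir142hg at 215 ± 36.4 TPM came next. Of the 19 pairs of neighbours among the 20 highest members, 5 kept their order in every library. The top pair was in the order given in 2 of 4 libraries, and Epb41l4aos (113 ± 13.6 TPM) and Snhg1 (112 ± 12.0 TPM) also changed places.

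**Figure D1:**
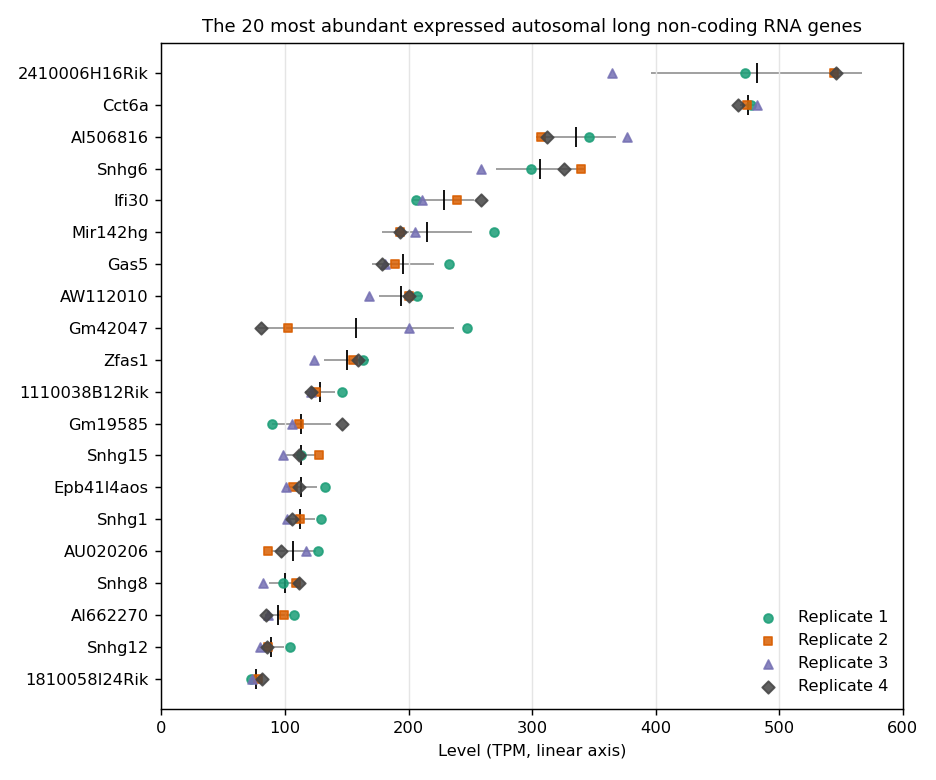
Level in TPM (linear axis) of the 20 members of highest mean level. Each point is a library, the tick is the mean and the line spans 1 SD on either side (n = 4). Gm42047 spread from 80.8 to 248 TPM, the points of most other members lay close together, and neighbouring members overlap.

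Some members are not long non-coding genes in every annotation. Of 143 members matched to RefSeq, 121 were typed lncRNA there, 17 protein_coding, 3 transcribed pseudogene and 2 pseudogene. Matching was by symbol or, failing that, by gene identifier or synonym, so a class can come from another gene. Gm12940, among the 17, was classed through Sfpq, of which RefSeq lists it as a synonym. The 17 took 0.106, 0.106, 0.105 and 0.110% of all TPM in replicates 1 to 4, against 0.604, 0.538, 0.532 and 0.536% for the other 171 members. Cct6a, Ifi30 (a lysosomal thiol reductase), 1810058I24Rik (source of a small mitochondrial protein) and Tmem134 were the most abundant of them. None of the 188 had a transcript typed protein_coding in GENCODE release 21. AW112010, which RefSeq types as lncRNA and which has been reported to be translated into a small protein in mouse macrophages, stood at 207, 200.1, 168 and 201 TPM, lowest in replicate 3. It and 1810058I24Rik (72.4, 77.9, 73.7 and 81.6 TPM) were the 2 members among 4 listed transcripts with a reported small protein. Of the others, Mtln stood at 36.1 ± 7.24 TPM but was no member by the rule, and Spaar had 0 counts in every library.

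Hosts of small RNAs made up much of the total. The 21 members that held snoRNA or scaRNA genes, 11.2% of all members, took 43.6% of their summed level, and 12 of the 20 highest members belonged to them. Together they stood at 3038, 2945, 2639.8 and 2885 TPM in replicates 1 to 4, lowest in replicate 3. Of their mean sum of 2877 TPM, 475 TPM came from Cct6a, which RefSeq types as protein_coding. The 8 members that held miRNA genes stood at 473, 334, 368 and 328 TPM, highest in replicate 1. A small RNA gene of any of these kinds was held by 27 members (14.4%), against 112 of 6805 other autosomal genes of the 3 types (1.65%) and 639 of 9200 autosomal coding genes at 5 TPM or more (6.95%). These shares describe the annotation, and the difference was not tested.

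Among the hosts, Gas5 holds 10 genes typed snoRNA, overlapping entries of Snord80 among them, and is named for its accumulation in growth-arrested cells. Its level was 233, 189, 181 and 179 TPM from replicate 1 to replicate 4, high in replicate 1 and alike in the others. Zfas1, which shares 82 exon bases with Znfx1 on the other strand and holds Snord12, stood at 163, 155, 123 and 159 TPM, lowest in replicate 3. Snhg1, with 8 snoRNA genes, stood at 129, 112, 101 and 106 TPM and Snhg6, with Snord87, at 299.5, 340.0, 259 and 326 TPM. The libraries did not order the hosts alike, with replicate 1 highest for Gas5, Zfas1 and Snhg1 and replicate 2 highest for Snhg6. Among hosts of H/ACA snoRNAs, which guide pseudouridylation, Snhg15 (Snora9) stood at 113, 128, 98.8 and 112 TPM and Snhg8 (Snora24) at 98.2, 109, 82.7 and 111 TPM, both lowest in replicate 3. Snhg12, with Snora16a, Snora44 and Snora61, stood at 104, 86.5, 80.0 and 85.8 TPM, and Snhg3, with Snora73a and Snora73b, at 82.0, 71.0, 60.9 and 56.1 TPM, both highest in replicate 1. Cct6a belongs to the hosts too, through Snora15. Among hosts of C/D snoRNAs, which guide methylation, Snhg5 (Snord50a and Snord50b) stood at 83.0, 67.0, 72.1 and 69.9 TPM and Rab26os (Snord60) at 29.7, 30.5, 26.1 and 23.7 TPM, and AA465934 (Snord7) was among the lowest at 12.0, 10.5, 10.7 and 12.6 TPM. Of the list of 21 known snoRNA hosts, 18 were matched and 13 were members, 1810032O08Rik (Snhg16 in RefSeq, 24.8 ± 2.55 TPM) among them. Snhg9 (4.81 ± 1.64 TPM) and Dancr (2.37 ± 0.0753 TPM) fell short of the threshold, Snhg11 and Snhg14 stood at 0.00738 ± 0.00869 and 0.0155 ± 0.00528 TPM, and Snhg18 had 0 counts in every library.

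The way fragments were counted bears on hosts. Of the 67 small RNA genes held, 51 lay at least partly on an exon of their host, and 49 of these had 0 counts in every library. Some loci are entered more than once among the 67, as Snord80 in Gas5, Snora16a in Snhg12 and Mir1839 as both scaRNA and miRNA. Of the 16 that lay off the exons, 14 had counts in some library, such as Snord49a with 52, 59, 62 and 106. Fragments that overlapped exons of 2 genes were not given to either, so the level of a host with a small RNA gene on its exon leaves such fragments out.

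Transcripts of ribosomal and translation genes often begin with C followed by a run of C and T, the terminal oligopyrimidine start, and snoRNA hosts are known to share it. A run of at least 5 such bases from a C within 2 bases of the RefSeq start was found in 6 of 19 snoRNA and scaRNA hosts with a promoter in the table (31.6%), in 10 of 95 other members (10.5%) and in 2942 of 32851 promoters in all (8.96%). The RefSeq start nearest to the start of the counted exons was used, with no limit on distance. It lay 179 bases away for Gas5 and 358 for Cct6a, both scored without a run, so a run at another start would be missed. The windows below give 10 bases before and 20 from the start of the run, with the run in capitals, from RefSeq on GRCm38.p6.
Snhg12 (chr4:132308666-132308695, plus strand): cgttctcagtCCTTTCTCgcttcatccgcg
Rab26os (chr17:24528239-24528268, plus strand): cgagcagtcgCTCTTTTTgggagtgagtgt
AI506816 (chr5:23712646-23712675, minus strand): tggcgccctgCTCTTCCgccgcggcgcgct
2700038G22Rik (chr5:23850588-23850617, plus strand): tggcgcccagCTCTTCCgccgcggcgcgct
Snhg8 (chr3:123508317-123508346, minus strand): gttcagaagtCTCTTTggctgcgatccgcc
Snhg3 (chr4:132353665-132353694, minus strand): ccacgcctgaCTTCCgggcgttacttaagg
AI506816 and 2700038G22Rik lie on opposite strands of chromosome 5 and their windows matched at 29 of 30 bases, and at 232 of 298 bases (77.9%) when the whole promoters were laid side by side without gaps. Their levels differed widely, with AI506816 at 346, 307, 377 and 312 TPM and 2700038G22Rik at 28.6, 15.0, 21.3 and 17.3 TPM. A match is a description of letters and does not show where transcripts began in these cells.

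**Figure D2:**
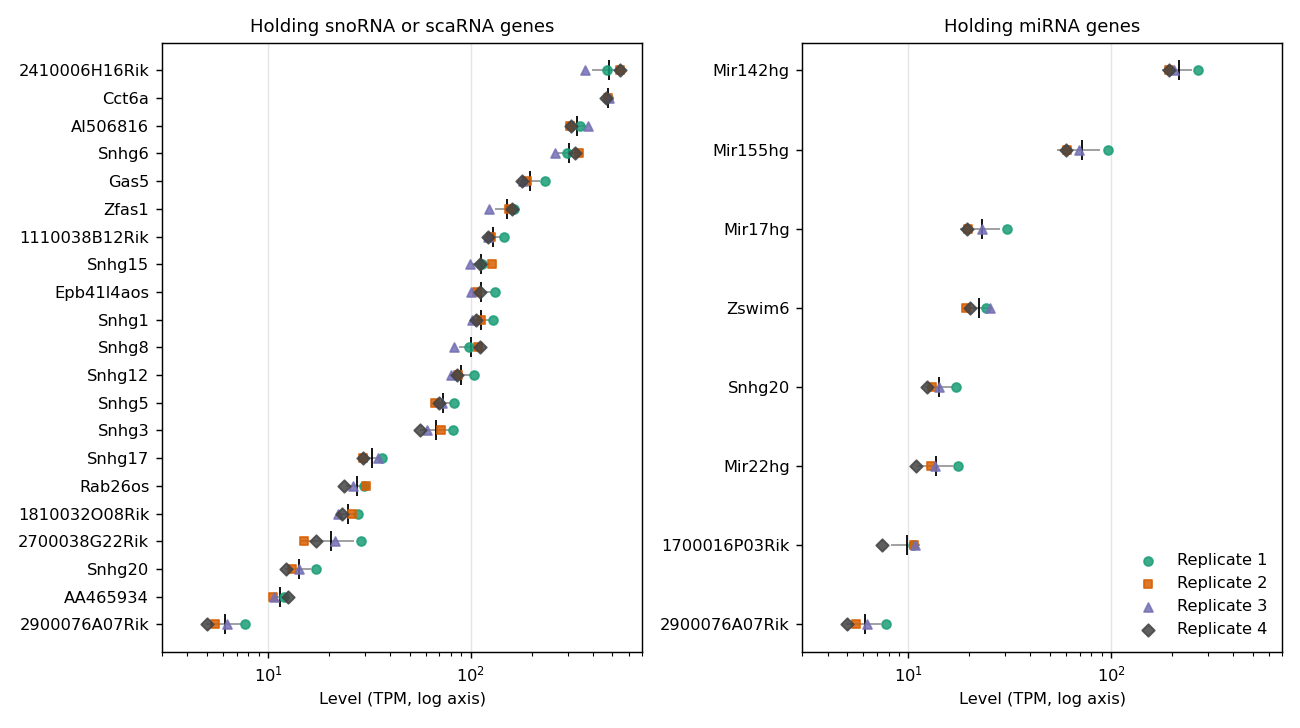
Level in TPM (log axis) of members that hold snoRNA or scaRNA genes (left) and miRNA genes (right). Each point is a library, the tick is the mean and the line spans 1 SD on either side (n = 4). Among the miRNA hosts, replicate 1 was the highest library of Mir142hg, Mir155hg, Mir17hg, Mir22hg, Snhg20 and 2900076A07Rik. Replicate 3 was the highest of Zswim6 and 1700016P03Rik.

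The miRNA hosts were led by Mir142hg (chr11:87755577-87757270, plus strand), at 269, 193, 205 and 193 TPM in replicates 1 to 4. Mir155hg (chr16:84703167-84715245, plus strand) stood at 96.2, 60.5, 69.5 and 59.7 TPM, and Mir17hg (chr14:115042879-115046727, plus strand) at 30.6, 19.6, 23.0 and 19.5 TPM. All 3 were highest in replicate 1 and closer together elsewhere. Mir22hg stood at 17.6, 13.0, 13.5 and 10.9 TPM and shares 206 exon bases with the coding gene Tlcd2 on its own strand. The other miRNA hosts were Zswim6 (22.2 ± 3.01 TPM), Snhg20 (14.2 ± 2.14 TPM) and 2900076A07Rik (6.12 ± 1.20 TPM). Zswim6 is typed protein_coding in RefSeq. The miRNA gene it held, Gm22118, had 0 counts in every library, and no mature product in RefSeq was matched to it. 1700016P03Rik, the host of the miR-132 and miR-212 pair printed above, stood at 10.6, 10.6, 10.8 and 7.42 TPM, lowest in replicate 4. Of 15 listed miRNA hosts 5 were members. Besides those named, Pvt1 (12.1 ± 1.14 TPM) was on the list, lying 47612 bases from Myc on the same strand, a regulator of cell growth at 491 TPM. Dleu2, host of miR-15a and miR-16-1, was under the threshold in every library, at 4.53, 2.88, 3.07 and 2.28 TPM. The levels are of the host RNA, and mature miRNAs were not measured.

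Nuclear and scaffold RNAs stood below the leading hosts. Of 7 listed, 5 were members. Malat1 (chr19:5795690-5802672, minus strand), an RNA of nuclear speckles whose mature end is cut by RNase P instead of polyadenylated, stood at 96.3, 30.5, 59.6 and 41.5 TPM in replicates 1 to 4. Replicate 1 was more than 3 times as high as replicate 2. Neat1, its neighbour on the chromosome and the scaffold of paraspeckles, stood at 14.9, 9.63, 11.1 and 9.53 TPM over 20771 exon bases. It was also highest in replicate 1, with the other libraries close together. 1700020I14Rik (Oip5os1 in RefSeq, known as Cyrano, which directs the decay of miR-7) stood at 69.2 ± 7.42 TPM, 2900097C17Rik (Norad, which binds Pumilio proteins) at 58.5 ± 7.70 TPM and Tug1 at 34.6 ± 3.17 TPM. The exon model of 2900097C17Rik covers 1149 bases in the files, against 4915 bases for its longest transcript in GENCODE release 21. Kcnq1ot1 at 0.249 ± 0.147 TPM and Miat, with 0 counts in every library, were not members. The part of RNA selection in the level or spread of Malat1 was not tested.

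Of 10 listed immune RNAs 6 were members, namely AW112010, Gas5, Mir155hg, Malat1, Mir17hg and Neat1. Gm14005 stood at 0.632 ± 0.113 TPM, and Gm16685 had 0 counts in every library. Of 8 listed p53 and growth control RNAs 2 were members, Gas5 and Pvt1. Trp53cor1, known as lincRNA-p21, stood at 2.30 ± 0.301 TPM. None of 9 listed imprinted RNAs was a member. Peg13 stood at 6.09 ± 0.927 TPM but is typed sense_intronic, a type the rule does not take, and Airn stood at 2.21 ± 1.33 TPM, with 4.16 TPM in replicate 1 against 1.17 to 1.89 TPM in the others.

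Position relative to coding genes was not used to choose members. In all, 72 members (38.3%) overlapped a coding gene on the other strand, against 42.2% of the other 6805 autosomal genes of the 3 types. By contrast, 56 members (29.8%) began within 1000 bases of the start of a coding gene on the other strand, against 14.5% of the other genes and 18.3% of coding genes at 5 TPM or more. The 56 divided into 31 transcribed away from the coding gene and 25 overlapping it head to head. These shares describe annotated coordinates and were not tested. Of 94 members with a coding partner by either measure, 74 were lower than the partner in every library, 17 were higher in every library and 3 changed order. The median ratio of partner to member was 3.74. Of 94 partners 82 stood at 5 TPM or more, against 9200 of 20620 autosomal coding genes. Where a member had several partners, the most abundant was taken. The median partner stood at 45.6 TPM, against 42.1 TPM for autosomal coding genes at 5 TPM or more and 11.7 TPM for members. The part of these general levels in the order within pairs was not tested.

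Several partners were among the abundant genes of these cells. 1600020E01Rik (6.60 ± 0.613 TPM) begins 74 bases from Pcbp1 (889.7 ± 31.0 TPM), an RNA-binding protein gene. Gm15545 (5.43 ± 0.433 TPM) begins 332 bases from Prmt1 (362 ± 11.9 TPM), an arginine methyltransferase gene, and Gm13546 (54.1 ± 5.77 TPM) lies across Cytip (347 ± 14.4 TPM), which encodes a lymphocyte regulator of cytohesins. The levels of these coding genes were steady over the libraries. Ptprv (30.4 ± 5.59 TPM), a transcribed pseudogene in RefSeq, begins 106 bases from Ptpn7 (281 ± 8.20 TPM), a phosphatase gene of blood cells. Map2k3os (5.04 ± 1.26 TPM) begins 166 bases from Map2k3 (158 ± 9.66 TPM), a kinase gene of the p38 pathway, and D330041H03Rik (8.43 ± 1.52 TPM) 133 bases from the splicing gene Rnps1 (223 ± 9.06 TPM). In each of these pairs the coding gene was the higher in every library. The other 4 of the 10 with the most abundant partners were Gm12319 beside Eno3, 9130221H12Rik across Gsk3a, Rab10os across Rab10 and 2810002D19Rik across Api5, with partners at 166 to 268 TPM.

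**Figure D3:**
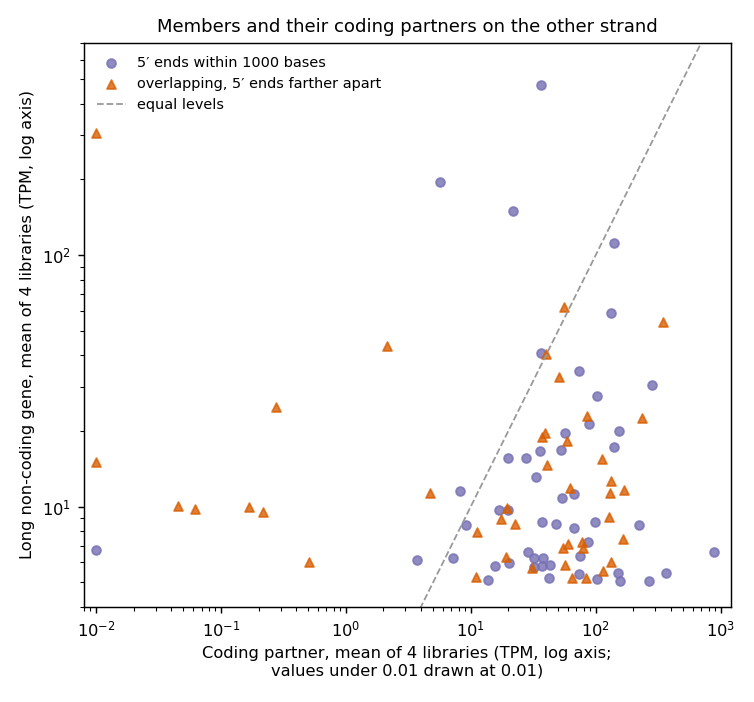
Mean level of the 94 members with a coding partner (vertical) against the mean level of the most abundant partner (horizontal), both in TPM on log axes, n = 4 libraries. Most points lie right of the dashed line of equal levels, where the partner is the higher, and Cct6a, Gas5, Zfas1 and Snhg6 stand far to its left.

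The members above their partner in every library included the hosts Gas5 (195 ± 25.3 TPM, beside Zbtb37 at 5.71 ± 0.976 TPM), Zfas1 (150.1 ± 18.2 TPM, beside Znfx1 at 22.5, 18.9, 24.2 and 22.1 TPM in replicates 1 to 4) and Snhg6 (306 ± 35.7 TPM, across Mcmdc2 at 0.00414 ± 0.00510 TPM). Brip1os (65.0, 59.6, 63.3 and 60.9 TPM in replicates 1 to 4) stood a little above Med13 (62.1, 46.8, 62.2 and 51.8 TPM), which it crosses. Counting was set to use the strand, so the fragments of such pairs were told apart as far as the libraries kept it.

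Snhg1 and Slc3a2, the gene of the CD98 heavy chain that carries amino acid transporters to the surface of dividing T cells, start 106 bases apart and run away from each other. Slc3a2 stood at 139, 137, 143 and 140.4 TPM in replicates 1 to 4, above Snhg1 in every library. The RefSeq promoter of Snhg1 (GRCm38.p6, chr19:8723237-8723536, plus strand, 250 bases before to 50 after the start) is printed because it reaches across the gap to the start of Slc3a2. Its 25 CpG dinucleotides are in capitals.
Snhg1: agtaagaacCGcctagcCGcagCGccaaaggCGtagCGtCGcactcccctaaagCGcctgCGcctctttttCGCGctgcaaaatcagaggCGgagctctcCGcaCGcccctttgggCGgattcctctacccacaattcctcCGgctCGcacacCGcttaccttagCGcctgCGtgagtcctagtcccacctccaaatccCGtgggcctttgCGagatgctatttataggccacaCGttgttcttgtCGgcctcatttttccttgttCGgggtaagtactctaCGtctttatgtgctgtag
Over all promoters in the table the median number of CpG in a window of this length was 7. It was 28 in the 34 divergent members with a promoter and 13 in the 80 others. A member's window is at its nearest RefSeq start, which can be far from the start of its counted exons. The distance was 27876 bases for D030028A08Rik, counted as divergent, and 89355 bases for Trerf1, among the others. The motif shares below carry the same limit. In all, 7 motifs were searched on both strands, each on its own, so that matches of different motifs can overlap. TATAAA occurred in 6 of 19 snoRNA and scaRNA hosts (31.6%), 8 of 95 other members (8.42%) and 13.6% of all promoters. GCCATNTTG, a motif that the factor YY1 is known to bind, occurred in 0 of the 19 hosts, in 8 of the 95 other members (8.42%) and in 2.51% of all promoters. GGGCGG occurred in 63.2% of the hosts, 48.4% of the other members and 35.7% of all promoters, and CCAAT in 7 of the 19 hosts (36.8%), 38 of the 95 other members (40%) and 37.4% of all promoters. CACGTG occurred in 10.5, 9.47 and 7.15% of hosts, other members and all promoters, CCGGAAG in 15.8, 18.9 and 8.86%, and TGANTCA in 0, 6.32 and 7.81%. No difference in motif shares was tested. A match describes letters and does not show binding.

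Neighbours of other members, chosen after their values were seen, included genes of T-cell surface proteins. A430093F15Rik (79.6, 64.3, 70.2 and 70.3 TPM) lies 1973 bases from Cd5, which stood at 1567 ± 80.2 TPM. Gm39323 (17.6, 10.1, 11.6 and 10.9 TPM) lies 2325 bases from Thy1, and AI504432 (63.6, 42.0, 55.1 and 45.6 TPM) 1434 bases from Kcna3, the gene of a potassium channel of T cells. All 3 were highest in replicate 1. Gm19585 (89.4, 112, 105 and 146 TPM) has Satb1, a chromatin organiser of thymocytes, as its nearest coding gene, 315999 bases away.

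Which members differed between the libraries beyond genes of like abundance was tested with edgeR over all genes, as the rule had used means and not spread. Of 13681 genes tested, 94 (0.687%) were called at an adjusted p under 0.05. Of 187 members tested, 6 (3.21%) were called, namely Malat1, Gm42047, Gm43305, Gm42031, 2410006H16Rik and Gm12940. At an unadjusted p under 0.05 the counts were 30 members (16%) and 959 genes (7.01%). Gm7125 did not pass the filter on low counts. No test compared the share of members with that of other genes.

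Malat1 was the third of all genes by p (edgeR adjusted p = 9.24e-23), with the values given above. Gm42047 (chr8:121833247-121841178, plus strand) had 248, 103, 200.4 and 80.8 TPM over replicates 1 to 4, with an edgeR adjusted p of 1.01e-20. Gm12940, which RefSeq lists as a synonym of the splicing gene Sfpq, stood at 27.1, 13.5, 19.8 and 15.0 TPM (edgeR adjusted p = 0.0277). In Malat1, Gm42047 and Gm12940 replicates 1 and 3 were the higher libraries. Gm43305 (chr14:54292443-54297343, minus strand) took another order, with 10.9, 12.6, 34.6 and 25.2 TPM (edgeR adjusted p = 2.65e-19), high in replicates 3 and 4. Xist and Ddx3y divide the replicates in the same way, and the part of that split in this call was not tested. Gm42031 (chr8:85125872-85132289, minus strand) stood at 27.2, 55.1, 50.1 and 47.3 TPM (edgeR adjusted p = 0.000131), low in replicate 1 alone, and it was no longer called without that replicate. The snoRNA host 2410006H16Rik, with the values given above, varied least of the 6 (edgeR adjusted p = 0.0111), its highest library being 1.50 times its lowest. It was not called without replicate 3 or without replicate 4, nor with a common dispersion (edgeR adjusted p = 0.139) or a length and GC offset (edgeR adjusted p = 0.255). Gm12940 was not called without replicate 1, 2 or 4, nor with no filter or with a mean count of at least 50. Neat1 and Gm19585 came next (edgeR adjusted p = 0.0519 and 0.0540). The miRNA hosts that were highest in replicate 1 did not pass the threshold, with an edgeR adjusted p of 0.0920 for Mir155hg, 0.242 for Mir17hg and 0.931 for Mir142hg.

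**Figure D4:**
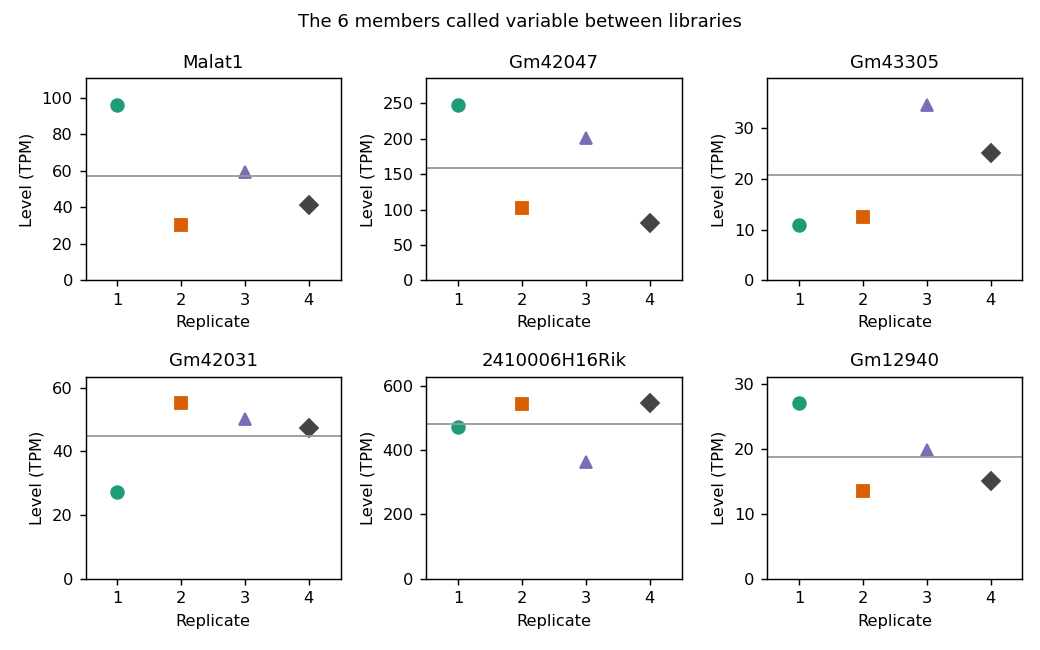
Level in TPM (linear axes from 0, each panel with its own scale) of the 6 members called variable by edgeR, by replicate. Points are libraries and the line is the mean of 4. Malat1, Gm42047 and Gm12940 are high in replicates 1 and 3, Gm43305 in replicates 3 and 4, and Gm42031 is low in replicate 1.

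Near-identical or shared sequence bears on Gm42047 and Gm12940. Gm42047 has 3 copies, the longest of them Gm48362 on chromosome 9, which matched 64.2% of its longest transcript at 98.4% identity. In all, 6 members had a copy elsewhere that matched at least 50% of the transcript at 95% identity or more. Fragments placed at several loci can be missing from their counts, and whether fragments of a copy were counted at the member was not tested. The others were 2900097C17Rik, Gm20186, Gm31793, Gm6712 and Gm10076 (29.9 ± 4.51 TPM). Gm10076, a pseudogene in RefSeq, matched the ribosomal protein gene Rpl41 over 99.7% of its length at 99.5% identity. Gm12940 shares 216 exon bases with Sfpq (429 TPM) on its own strand, where fragments were left uncounted. Such sharing touched 10 members, with 24 to 2628 bases.

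Over all members the SD of log2(TPM + 1) across libraries had a median of 0.18, against 0.10 in the 9200 autosomal coding genes at 5 TPM or more. The median level was 11.7 TPM in members and 42.1 TPM in those coding genes, and the part of level in the difference was not tested. The median ratio of the highest to the lowest library was 1.37, and 17 members reached a ratio of 2. Both leave out Gm7125, which has no ratio because its lowest libraries had 0 counts. Replicate 1 was the highest library for 98 members (52.1%), against 2399 of the coding genes (26.1%), and replicate 3 was the highest for 34 members (18.1%), against 4052 coding genes (44.0%). Mitochondrial genes took 2.31, 1.39, 1.83 and 1.54% of TPM, and the 2 ribosomal repeat genes 0.286, 0.453, 0.523 and 0.451%, and their part in this order was not tested.

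Near the threshold, values were spread widely. Gm12319 (5.07 ± 2.12), Map2k3os (5.04 ± 1.26) and Gm32468 (5.01 ± 1.45 TPM) were just inside it. Gm28809 (4.99 ± 1.43), 6330418K02Rik (4.98 ± 1.35) and Gm16565 (4.95 ± 0.706 TPM) were just outside, and the SDs on both sides exceeded the differences between them. Another member with an uneven pattern, Gm7125 (6.31 ± 7.28 TPM, 273 exon bases, a pseudogene in RefSeq), had 0, 56, 0 and 95 counts in replicates 1 to 4. That is 12.7 and 12.5 TPM in replicates 2 and 4, against at most 0.655 and 0.789 TPM that a count of 0 allows, at 3 counts, in replicates 1 and 3. It was the only member with 0 counts in a library. Members lay on all autosomes with 29 (15.4%) on chromosome 11, against 8.84% of the coding genes at 5 TPM or more.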

How the data were processed

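RNA was measured in 4 libraries of 1 group. Read pairs were assigned to the exons of GENCODE mouse release 13 by the authors with featureCounts 1.4.6-p4, per the file headers, on the reverse strand, with both ends aligned and no option for multimapping fragments or fragments that overlap several genes. The deposited values are these raw counts, not normalized. The genome build is mm10 per the labels, and no version of the aligner is named in the labels or headers. TPM was computed from the counts and exon lengths in the files. Symbols and gene types came from GENCODE release 21, matched for 50376 of 50600 genes. RefSeq tables on GRCm38.p6 gave gene classes, synonyms, promoters and miRNAs. Coordinates are those of the files, 1-based, unless credited to RefSeq.

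Variability was tested in edgeR 4.0.16 under R 4.3.3 (TMM factors, filterByExpr, trended dispersion, intercept-only fit, each gene's deviance against a chi-square distribution, Benjamini-Hochberg adjustment over all genes tested), with DESeq2 1.42.0 as an alternative. The test was also run on counts simulated from the trended dispersion that it fits, which does not speak to departures from that trend. Copies were sought with blastn 2.17.0+ among GENCODE transcripts. The other steps used Python 3.11.15, pandas 2.3.3 and matplotlib 3.10.9. A count of 0 was given a floor of 3 counts in a library, and floors cover counting error only. The alternatives changed the threshold, the TPM scale, the dispersion, size factors, filters, the pseudocount and the distances, added a length and GC offset, or left out each replicate.

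The members and gene lists were chosen with earlier results of these data known. Named are the 20 members of highest mean TPM, every member of a list, all called variable, hosts of snoRNA, scaRNA or miRNA genes, the 10 with the most abundant coding partner, the 3 on either side of the threshold, and neighbours of these.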

Additional observations from a re-analysis of the deposited data

Results flagged for a closer look

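In 54 named members the far library was compared with the rest by Dixon's ratio, which flags about 5% of groups of 4 by chance, and 3 passed. Mir142hg stood at 269 TPM in replicate 1, against 193 to 205 TPM in the other libraries. 1110038B12Rik, host of Snord52, stood at 146 TPM in replicate 1, against 121 to 125 TPM. 1700016P03Rik, host of miR-132 and miR-212, stood at 7.42 TPM in replicate 4, against 10.6 to 10.8 TPM.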

How the results depend on the processing

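A mean TPM of at least 1 in place of 5 gave 562 members and one of at least 10 gave 104, while the other settings gave 156 to 203, the range without each replicate being 189 to 191. The share of TPM was 0.462% as a share of counts and 0.611% without 2410006H16Rik, and 0.643 to 0.667% without each replicate. Called variable were 12 members under a common dispersion, where 617 of 13681 genes were called in place of 94, 4 to 8 without each replicate and 6 to 8 under the other settings. Calls over all genes numbered 38, 46 and 46 without replicates 2, 1 and 4, and 87 without replicate 3. Malat1, Gm42047 and Gm43305 stayed called under all 10 alternatives, with adjusted p of at most 0.000415, 2.21e-06 and 4.44e-08 (edgeR, or its deviance on DESeq2 dispersions), Gm42031 under 9, 2410006H16Rik under 6 and Gm12940 under 5. Gm7125 was called when no filter was set. Neat1, Gm19585, Mir155hg and B130055M24Rik were called under some alternatives only. The cause was not tested. The median SD of log2(TPM + 1) was 0.15 to 0.19 without each replicate, lowest without replicate 1. With other definitions, overlapping members numbered 50 and 59 in place of 72, divergent members 45 and 79 in place of 56, and hosts 18 in place of 27. Of 270 recomputed levels of named members, 268 moved by less than 1 SD. Leaving out 1 of 4 libraries cannot move a mean that far, so those levels do not speak to stability. The only other setting was TPM over protein-coding genes only. Under it 2 of 54 levels moved by more than 1 SD, those of Cct6a and 1810058I24Rik. No paired analysis was possible because there is 1 group. In 36 members some library held under 100 counts, which limits their precision.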
